A study of Mus musculus with 10 samples.

Results

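The genes described here encode subunits of the oxidative phosphorylation machinery. They were the entries of the deposited expression table whose symbol begins with Nduf followed by the letter a, b, c, s or v and a digit, with Uqcr, with Cox followed by a digit from 4 to 8, or with Atp5. This rule used the symbols alone and no measured value, and it found 74 of 11617 listed genes. Of these, 34 encode subunits of complex I, 8 of complex III, 15 of complex IV and 15 of the ATP synthase, and the other 2 are Atp5s and Atp5sl, which carry Atp5 symbols without encoding subunits of the enzyme. Ndufa4 and Ndufa4l2 are counted with complex IV despite their names, since the Ndufa4 protein is bound to cytochrome c oxidase.

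The cells were macrophages grown from the bone marrow of C57BL/6 mice in 10% fetal bovine serum with GM-CSF at 50 ng/ml, and their polyadenylated RNA was sequenced. The mouse age is given as 7 weeks in one label and as 6 weeks in another. All groups shared this strain and culture, and no genetic change is named for any of them. The control group was untreated and carries no time label. A pair of groups received Pam3CSK4 at 10 ng/ml, a synthetic lipopeptide that activates the receptor TLR2, for 1 h or 3 h. Another pair received AmTARS, which the series title names as a ligand of TLR2, for 1 h or 3 h. Its dose is written as 0.5 with the unit mm, so the doses of the ligands cannot be compared. Each of the 5 groups held 2 libraries (n = 2), which the labels do not tie to separate cultures or mice, and the p-values thus reflect only the spread between these libraries, which may be technical.

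Oxidative phosphorylation takes electrons from NADH and succinate, passes them through complexes I to IV of the inner mitochondrial membrane to oxygen, and uses the resulting proton gradient to drive the ATP synthase. Complex I oxidises NADH, complex III oxidises ubiquinol and reduces cytochrome c, and complex IV reduces oxygen. Most subunits are encoded in the nucleus and a few in mitochondrial DNA. Macrophages activated through Toll-like receptors are known to shift toward glycolysis, and electron transport then also serves as a source of reactive oxygen. No gene encoded in mitochondrial DNA was in the table, so the values below cover nuclear genes.

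Promoters of respiratory subunit genes are known for binding sites of NRF-1, of ETS factors such as GABP and of YY1, and RefSeq promoter windows on GRCm38.p6 were matched for 59 members (64 windows of 300 bases, from 250 before to 50 after the start). They are shown as background, and no link between a motif and a change in level was tested. Motifs were searched on both strands as GCGCANGCG (NRF-1 type), CCGGAAG (ETS type), ATGGCGG (YY1 type) and TATAAA, and overlapping matches were each counted. Of member windows 28.1% held the NRF-1 type motif, against 6.25% of the 32851 windows of all genes in the reference. Those windows were not limited to genes of the expression table, and no comparison with tested genes alone was made. The ETS type motif was in 21.9% of member windows against 8.86% of all, and the YY1 type motif in 17.2% against 4.05%. TATAAA was in 9.38% of member windows against 13.6% of all. For each complex the member with the most kinds of motif is printed, as the 250 bases before the start in lower case, 5′ to 3′ on the gene's strand, with motifs on either strand in capitals. A match describes the letters alone, and no binding was measured here.
Ndufa7 promoter, GRCm38.p6 chr17:33824322-33824571, + strand: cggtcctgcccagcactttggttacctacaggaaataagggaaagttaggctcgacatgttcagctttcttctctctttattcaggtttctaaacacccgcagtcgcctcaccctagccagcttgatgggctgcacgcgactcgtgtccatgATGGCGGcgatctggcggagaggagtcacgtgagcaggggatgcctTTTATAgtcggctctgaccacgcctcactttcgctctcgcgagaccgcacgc
Uqcr11 promoter, GRCm38.p6 chr10:80406822-80407071, - strand: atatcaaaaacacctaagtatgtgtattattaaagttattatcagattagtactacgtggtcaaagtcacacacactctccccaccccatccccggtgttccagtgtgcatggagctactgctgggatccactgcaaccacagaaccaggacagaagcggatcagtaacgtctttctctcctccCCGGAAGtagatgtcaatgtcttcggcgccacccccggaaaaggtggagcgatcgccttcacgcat
Cox6a1 promoter, GRCm38.p6 chr5:115348959-115349208, - strand: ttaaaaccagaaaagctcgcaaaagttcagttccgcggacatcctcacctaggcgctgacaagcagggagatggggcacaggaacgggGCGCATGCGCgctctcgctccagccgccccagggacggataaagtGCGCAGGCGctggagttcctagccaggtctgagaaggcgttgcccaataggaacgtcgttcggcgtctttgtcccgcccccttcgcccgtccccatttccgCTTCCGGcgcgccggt
Atp5l promoter, GRCm38.p6 chr9:44920743-44920992, - strand: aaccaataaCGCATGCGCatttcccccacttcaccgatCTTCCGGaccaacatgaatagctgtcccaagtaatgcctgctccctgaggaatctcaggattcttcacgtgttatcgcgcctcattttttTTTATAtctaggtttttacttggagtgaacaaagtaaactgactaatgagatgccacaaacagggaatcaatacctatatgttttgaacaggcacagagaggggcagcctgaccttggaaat

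These 4 stretches differed in what they held. The Ndufa7 stretch has 1 YY1 type motif and 1 TATAAA, and the Uqcr11 stretch has 1 ETS type motif, with 1 NRF-1 type match past the start that is not printed. The Cox6a1 stretch has 3 NRF-1 type matches, of which 2 overlap in a palindrome, and 1 ETS type motif. The Atp5l stretch has 1 NRF-1 type motif, 1 ETS type motif and 1 TATAAA.

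Libraries held 27398791 to 37559810 reads in listed genes, recovered from the deposited log2(CPM + 1) values (CPM, read counts per 1000000 reads of a scaled library size). Of 74 members, 72 had a mean of at least 1 CPM over the 10 libraries and were tested. The other 2, Cox4i2 and Cox7a1, averaged 0.905 and 0.987 CPM. They are isoforms known from lung and from muscle. Macrophage markers summed to 48650 to 52910 CPM (7 of 8 listed in the table). Of these 7 genes 3, 2, 4 and 3 fell against control after AmTARS for 1 h and 3 h and Pam3CSK4 for 1 h and 3 h, down to -1.02 for Mertk after Pam3CSK4 for 3 h, where 2 rose. T cell markers (0 of 5) and erythroid markers (0 of 5) were not in the table. Neutrophil markers (6 of 7) summed to 1234 to 1317 CPM in control and to 1629 to 2112 CPM in treated libraries, without overlap, and 5, 4, 5 and 5 of these 6 genes rose. Stromal markers (5 of 5) summed to 1473 to 1565 CPM in control, to 1264 to 1405 and 1347 to 1436 CPM after AmTARS for 1 h and 3 h, and to 1374 to 1498 and 1290 to 1477 CPM after Pam3CSK4. Both AmTARS groups lay below control and both Pam3CSK4 groups overlapped it, and 4, 2, 1 and 3 of the 5 stromal genes fell. Of all genes, 18.9%, 18.8%, 23.9% and 24.7% rose and 19.8%, 17.9%, 24.8% and 24.2% fell in the same comparisons. These marker values are as deposited, without the length and GC correction described further on. The part of transcript length in them was not tested, nor was the part of these marker changes in the results below. In bulk RNA, fewer cells of a type and less RNA per cell cannot be told apart.

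In control cells the members differed widely in level per length of transcript (CPM per kb). The median was 51.8 CPM per kb for the 34 complex I genes, 110 for complex III, 147 for the 13 tested complex IV genes and 133 for the ATP synthase. The highest was Cox4i1, the nuclear subunit that starts assembly of complex IV, at 420 CPM per kb. Within complex I the range ran from Ndufb4 at 8.95 to Ndufa1 at 132 CPM per kb. Ndufb4 has near-identical copies named Ndufb4b and Ndufb4c in the RefSeq gene table, so reads may have been divided among them and its level is uncertain. Among complex III genes Uqcrh, the acidic hinge protein near cytochrome c1, was highest at 213 and Uqcrfs1, the Rieske iron-sulfur protein, lowest at 40.9. Ndufa4l2, a paralog of Ndufa4 known for induction by hypoxia, stood at 4.17. Within the ATP synthase the catalytic subunit gene Atp5b was highest at 273 and Atp5g1 lowest at 11.4, a value that rests on a transcript of 4660 bases where the shortest coding one has 596.

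Most subunit genes stood higher after either ligand at both times. Members took 0.612% and 0.638% of reads in the 2 control libraries and 0.688% to 0.781% in the 8 treated ones, without overlap. Per library, the median difference of the 72 genes from the control mean was -0.03 and 0.03 in control. It was 0.36 and 0.31 after AmTARS for 1 h, 0.35 and 0.24 after 3 h, 0.50 and 0.37 after Pam3CSK4 for 1 h, and 0.25 and 0.34 after 3 h (log2). The median of all genes tested stayed between -0.01 and 0.00 in the same libraries.

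**Figure D1:**
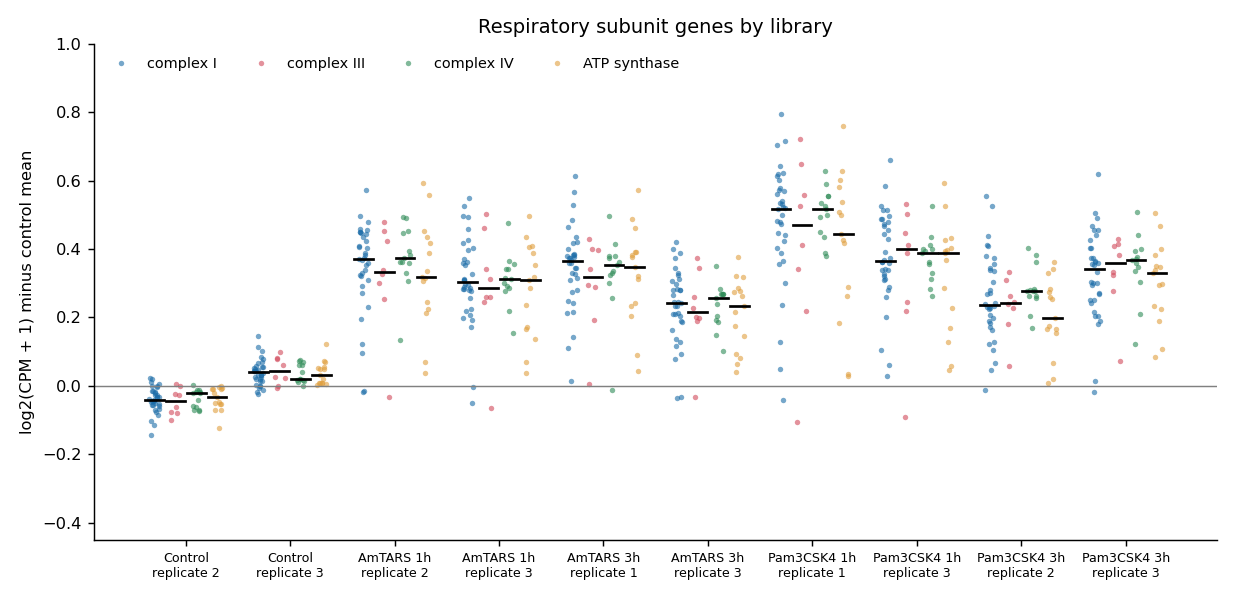
Log2(CPM + 1) minus the control mean for each tested subunit gene (points, coloured by complex) in each of 10 libraries, with black bars for the median of each complex. Medians lie near 0 in the 2 control libraries, and the lowest median in a treated library is 0.20, for the ATP synthase in Pam3CSK4 3 h replicate 2.

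After AmTARS for 1 h, 64 of 72 members rose and 0 fell by limma with Benjamini-Hochberg adjustment below 0.05, while 18.9% of all 11407 genes rose and 19.8% fell. Their median log2 difference was 0.34, against 0.00 for all genes. After AmTARS for 3 h, 63 rose and 0 fell, against 18.8% and 17.9% of all genes, with a median of 0.30. Without AmTARS 3 h replicate 1 the changed members numbered 38, and without control replicate 2 they numbered 41. After Pam3CSK4 for 1 h, 64 rose and 0 fell, against 23.9% and 24.8% of all genes, with a median of 0.43. After Pam3CSK4 for 3 h, 63 rose and 1 fell, against 24.7% and 24.2% of all genes, with a median of 0.30. At an unadjusted p below 0.05 (limma), 64, 64, 66 and 65 members were higher and 0, 0, 0 and 1 lower. At the adjusted threshold, voom on the recovered reads gave the same numbers of calls as limma on the deposited values. These 4 comparisons share the 2 control libraries and are therefore not independent of each other.

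As deposited, most subunit genes of each complex rose. In complex I, 32, 31, 31 and 31 of 34 genes rose in the comparisons in the order above, with medians of 0.34, 0.31, 0.43 and 0.28. In complex III, 7 of 8 rose in each comparison, with medians of 0.32, 0.26, 0.42 and 0.30. In complex IV, 12, 12, 13 and 12 of 13 rose, with medians of 0.35, 0.30, 0.46 and 0.32. In the ATP synthase, 13 of 15 rose in each, with medians of 0.33, 0.30, 0.43 and 0.27 (log2 differences throughout). After the correction for length and GC content described further on, 8, 7, 18 and 11 genes of complex I rose, 1, 0, 3 and 1 of complex III, 4, 1, 8 and 2 of complex IV, and 5, 4, 6 and 5 of the ATP synthase. The shares of all genes that rose after it were 8.13%, 10.9%, 11.6% and 21.1%. In complex III and complex IV the counts after 3 h of either ligand lay under those shares.

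The subunit genes have short transcripts, and across all genes the difference from control followed transcript length. The median length of the 72 tested members was 786 bases, against 2837 bases for the 11365 tested genes with a length in GENCODE M21. Of the members, 47 had a transcript under 1000 bases. Across all genes Spearman's rho between log2 length and log2 difference was -0.72, -0.65, -0.72 and -0.50 in the 4 comparisons, in the same order, with shorter transcripts higher. Across the 72 members it was -0.73, -0.59, -0.68 and -0.56. These are descriptions across genes of the same libraries, and genes are not replicates.

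**Figure D2:**
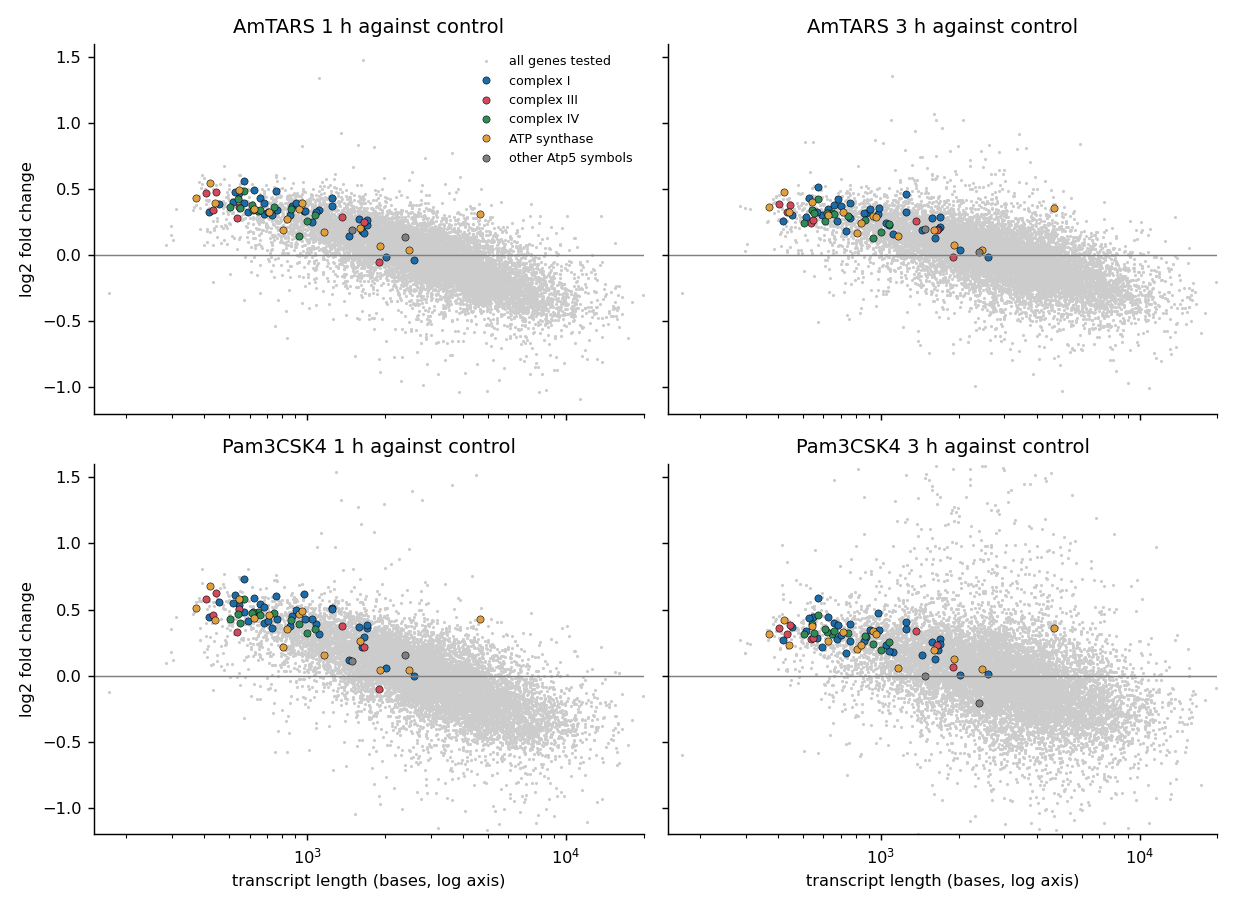
Log2 difference from control (vertical) against transcript length in bases (horizontal, log axis) for all tested genes (grey) and the subunit genes (coloured by complex), 1 panel per comparison; genes beyond the axis limits are not drawn. The members lie in the upper left of the cloud, at a median of 786 bases, and of the 7 over 1800 bases Atp5g1 lies highest in each panel, while Atp5sl lies at -0.20 after Pam3CSK4 for 3 h.

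Length also ordered the members among themselves. Of the 47 genes under 1000 bases, 46, 46, 47 and 46 rose in the 4 comparisons, with medians of 0.36, 0.32, 0.47 and 0.33. Of the 25 genes of 1000 bases or more, 18, 17, 17 and 17 rose, with medians of 0.23, 0.20, 0.30 and 0.19. Shares of all genes of these lengths that rose were not counted. The 7 genes over 1800 bases were Atp5a1, Atp5b, Atp5g1, Atp5sl, Ndufa10, Ndufs1 and Uqcrc2, and 1, 1, 1 and 2 of them rose. The gene of this size that rose in each comparison was Atp5g1, whose shorter transcript is named above.

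A second set of values was therefore computed after removing from each library the trend that its values followed with transcript length and GC content. After AmTARS for 1 h, 18 of 72 members then rose and 0 fell, while 8.13% of all genes rose and 6.72% fell. After AmTARS for 3 h, 12 rose and 0 fell, against 10.9% and 8.22%. At an unadjusted p below 0.05, 2 members were lower at 1 h and 0 at 3 h. After Pam3CSK4 for 1 h, 35 rose and 2 fell, against 11.6% and 11.3%. After Pam3CSK4 for 3 h, 19 rose and 2 fell, against 21.1% and 21.5%, so the share that rose (26.4%) was near that of all genes. Medians of the corrected differences were 0.09, 0.07, 0.11 and 0.05, against 0.34, 0.30, 0.43 and 0.30 before the correction. With the shortest coding transcript of each gene as its length, the members that changed numbered 48, 42, 59 and 46. Without control replicate 2 the corrected counts were 6, 4, 14 and 7, so they depend on single libraries. Without control replicate 3 they were 10 for AmTARS at 1 h and 7 for Pam3CSK4 at 3 h. Leaving out a treated library gave 4 (AmTARS 1 h replicate 2), 8 (AmTARS 1 h replicate 3), 4 (AmTARS 3 h replicate 1), 14 (Pam3CSK4 1 h replicate 1) and 12 (Pam3CSK4 3 h replicate 3). RNA quality values are not in the sources used here, and the part of transcript length in the differences was examined by this correction alone.

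**Figure D3:**
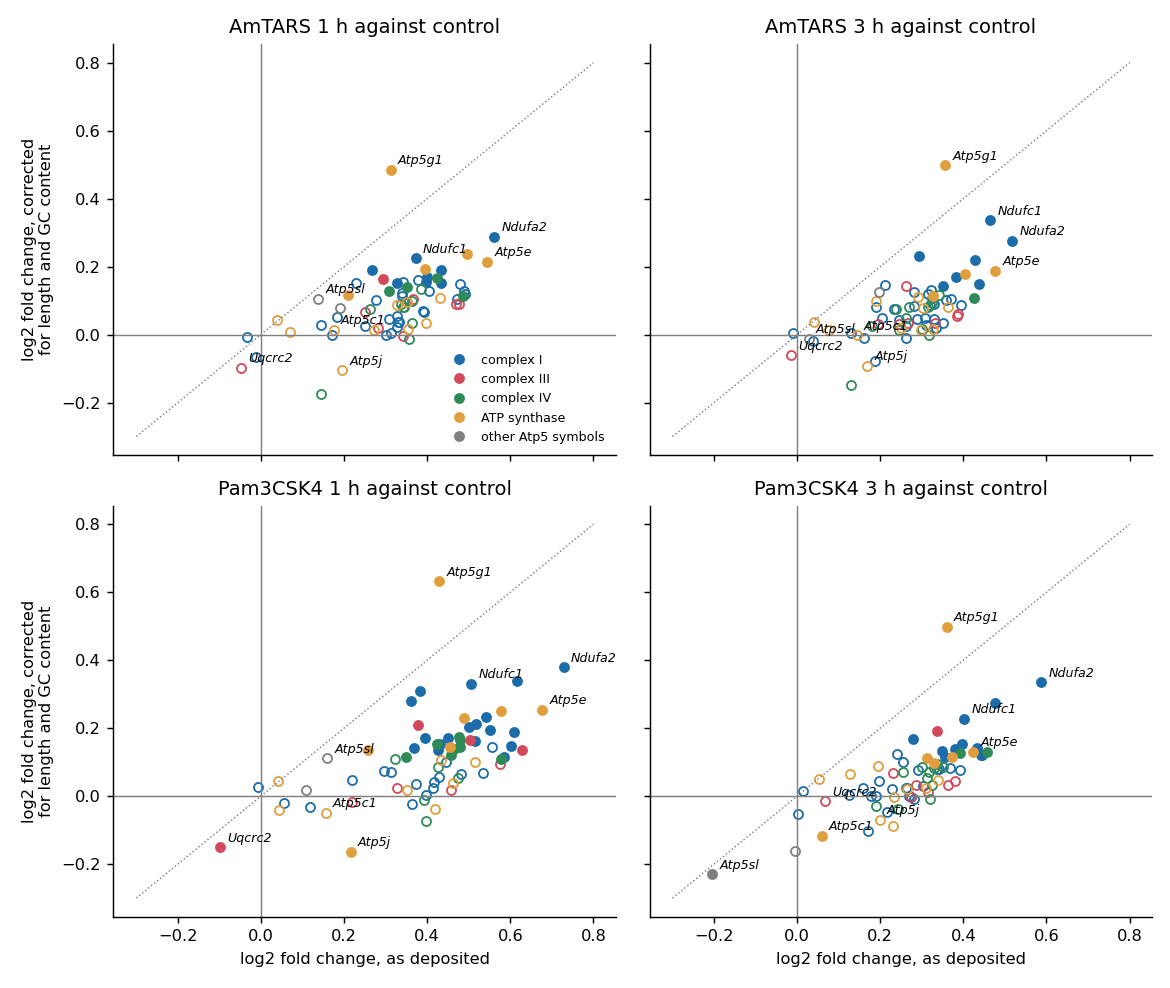
Log2 difference from control after the length and GC correction (vertical) against the same difference as deposited (horizontal) for the 72 tested members, 1 panel per comparison; filled points passed the adjusted p threshold after the correction and the dotted line marks equal values. Most members lie under the line, with Ndufa2 and Atp5e farthest right after 1 h and Atp5g1 on the upper side.

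Among complex I genes, Ndufa2 encodes an accessory subunit of the matrix arm and showed the largest difference of all members in each comparison with control. Its level was 59.95 and 63.85 CPM in control, 92.5 and 91.0 after AmTARS for 1 h, 95.2 and 83.1 after 3 h, 108 and 98.4 after Pam3CSK4 for 1 h, and 91.5 and 95.6 after 3 h. Every treated library lay above both control libraries. Its log2 fold change was 0.56 ± 0.06, 0.52 ± 0.06, 0.73 ± 0.06 and 0.59 ± 0.06 (moderated SE; adjusted p = 5.3e-06, 1.1e-05, 8.7e-08 and 2.2e-07, limma). After the correction these were 0.29, 0.28, 0.38 and 0.34, and each passed (adjusted p at most 9.4e-05).

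The core subunit genes of complex I, which carry the electron path from NADH to ubiquinone, rose in 6 of 7 cases in each comparison as deposited, and the exception was Ndufs1. This gene, at chr1:63143596-63176833 (mm10, - strand), encodes the largest subunit and binds iron-sulfur clusters. Its level was 60.1 and 65.2 CPM in control, 61.9 and 60.4 after AmTARS for 1 h, 63.2 and 61.1 after 3 h, 60.8 and 63.9 after Pam3CSK4 for 1 h, and 64.7 and 61.7 after 3 h. All groups overlapped, and the log2 differences lay between -0.03 and 0.01 with SE 0.06 (adjusted p at least 0.67). Ndufs7, whose protein binds the iron-sulfur cluster nearest to ubiquinone, rose from 45.2 and 47.4 CPM in control to 71.6 and 69.8 after Pam3CSK4 for 1 h. The groups did not overlap, and the log2 fold change was 0.60 ± 0.05 (adjusted p = 8.7e-08), or 0.15 after the correction (adjusted p = 0.024).

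As deposited, the other core genes lay between Ndufs1 and Ndufs7. Ndufv1, for the NADH-binding flavoprotein, had log2 fold changes of 0.17, 0.20, 0.29 and 0.20, which all passed before the correction and not after it (-0.00 to 0.07). Ndufv2, an iron-sulfur protein next to Ndufv1, had 0.27, 0.29, 0.38 and 0.24 and kept 0.19, 0.23, 0.31 and 0.12 after the correction, of which the last did not pass (adjusted p = 0.052). Ndufs3 and Ndufs8 rose in each comparison as deposited, by 0.23 to 0.43 and 0.33 to 0.43.

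The 27 accessory genes of complex I rose in 26, 25, 25 and 25 cases as deposited, with medians of 0.34, 0.31, 0.45 and 0.29. After the correction 7, 6, 15 and 11 rose. Ndufa10, a nucleoside-kinase-like subunit with a transcript of 2020 bases, had values of 65.8 and 65.1 CPM in control and 64.0 to 70.8 in treated libraries, with no difference past the threshold. Ndufa9 rose by 0.14, 0.19 and 0.16 after AmTARS for 1 h and 3 h and Pam3CSK4 for 3 h, and had 0.12 after Pam3CSK4 for 1 h (adjusted p = 0.074). Ndufa12 rose by 0.34 and 0.31 after 1 h of AmTARS and Pam3CSK4, and had 0.16 and 0.18 after 3 h, which did not pass. After the correction Ndufa9 and Ndufa12 passed as higher in 0 comparisons with control. Ndufb6, Ndufb11 and Ndufc2, of the membrane arm, rose by 0.38 to 0.54, 0.35 to 0.50 and 0.38 to 0.52, and each also passed after the correction, at 0.15 to 0.23, 0.13 to 0.20 and 0.14 to 0.22. Another 18 accessory genes rose in each comparison as deposited, between 0.17 (Ndufb10, Pam3CSK4 for 3 h) and 0.61 (Ndufa7, Pam3CSK4 for 1 h). Ndufc1, a small membrane-arm subunit, rose from 16.7 and 19.7 CPM in control to 26.6 and 24.2 after AmTARS for 3 h, a log2 fold change of 0.47 ± 0.08 (adjusted p = 0.00017). Its corrected value of 0.34 rests on a transcript of 1249 bases, while the shortest coding one has 315. Ndufb4, of the membrane arm, had 7.997 and 9.381 CPM in control against 14.89 and 12.81 after Pam3CSK4 for 1 h and 12.93 and 11.99 after 3 h. The groups did not overlap, and the log2 fold changes were 0.62 ± 0.09 and 0.48 ± 0.09 (adjusted p = 2e-05 and 0.00022), or 0.34 and 0.28 after the correction (adjusted p = 0.0043 and 0.0097).

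In complex III, the gene for the structural core protein Uqcrc2 stood apart from the others. It lies at chr7:120635176-120659524 (mm10, + strand) and had 82.4 and 85.2 CPM in control, 81.9 and 80.0 after AmTARS for 1 h, 84.1 and 81.8 after 3 h, 77.9 and 78.6 after Pam3CSK4 for 1 h, and 87.3 and 88.2 after 3 h. The Pam3CSK4 libraries lay below control at 1 h and above it at 3 h. Neither log2 difference passed as deposited (-0.10 ± 0.05, adjusted p = 0.097, and 0.07 ± 0.05, adjusted p = 0.27). After the correction the value at 1 h fell by 0.15 and passed (adjusted p = 0.0085). That call did not hold with the shortest transcript (-0.08, adjusted p = 0.14), without control replicate 2 (adjusted p = 0.081) or without Pam3CSK4 1 h replicate 1 (adjusted p = 0.13). Its partner Uqcrc1 rose by 0.25, 0.20, 0.22 and 0.23, and none of these passed after the correction, where the third was -0.02.

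The small subunit genes of complex III rose as well as deposited. Uqcr11, whose promoter is printed above, had 48.4 and 48.5 CPM in control, 66.7 and 69.0 after AmTARS for 1 h, 64.1 and 63.0 after 3 h, 80.5 and 70.5 after Pam3CSK4 for 1 h, and 61.3 and 65.6 after 3 h. All treated libraries lay above control, with log2 fold changes of 0.48, 0.39, 0.63 and 0.38 (SE 0.06; adjusted p at most 9.6e-05). After the correction they were 0.09, 0.05, 0.14 and 0.04, and the third alone passed (adjusted p = 0.034). Uqcrq and Uqcrh rose by 0.36 to 0.58 and by 0.27 to 0.50 as deposited, and Uqcrb and Uqcr10 by 0.24 to 0.33 and by 0.32 to 0.46. After the correction Uqcrh passed as higher in 1 comparison with control, and Uqcrq, Uqcrb and Uqcr10 in 0. Uqcrfs1, the Rieske protein that hands electrons to cytochrome c1, rose by 0.29, 0.26, 0.38 and 0.34. It kept 0.16, 0.14, 0.21 and 0.19 after the correction, of which the second did not pass (adjusted p = 0.053).

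Complex IV genes moved within a narrow range. Cox6a1, the broadly expressed isoform of subunit VIa, lies at chr5:115345642-115348981 (mm10, - strand) with its promoter printed above. It had 123 and 126 CPM in control, 176 and 174 after AmTARS for 1 h, 176 and 159 after 3 h, 193 and 180 after Pam3CSK4 for 1 h, and 165 and 178 after 3 h. Treated and control libraries did not overlap. The log2 fold changes were 0.49 ± 0.05, 0.43 ± 0.05, 0.58 ± 0.05 and 0.46 ± 0.05 (adjusted p at most 2e-05), and 0.11, 0.11, 0.11 and 0.13 after the correction (adjusted p = 0.040, 0.045, 0.035 and 0.0066).

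Cox4i1, the most abundant member per length, had 311 and 315 CPM in control, 402 and 404 after AmTARS for 1 h, 402 and 370 after 3 h, 454 and 417 after Pam3CSK4 for 1 h, and 381 and 404 after 3 h. It rose by 0.36, 0.30, 0.47 and 0.33 as deposited, and its corrected values of 0.01 to 0.05 did not pass. Cox8a, the smallest subunit, rose by 0.36, 0.32, 0.40 and 0.32 as deposited, while its corrected values ran from -0.07 to -0.00 and did not pass. Cox5a and Cox5b, both on the matrix side of the enzyme, rose by 0.32 to 0.48 and by 0.27 to 0.42 as deposited. After the correction they passed as higher in 1 and 2 of the comparisons with control. Cox7a2 rose by 0.32 to 0.46 as deposited, Cox6b1 by 0.32 to 0.48, Cox6c by 0.24 to 0.42, Cox7b by 0.18 to 0.32 and Cox7c by 0.34 to 0.46. After the correction Cox6c and Cox7b passed as higher in 0 comparisons with control, Cox7a2 and Cox6b1 in 1 each, and Cox7c in 3. Cox7a2l, a protein that joins complexes III and IV into supercomplexes, rose by 0.31, 0.24, 0.35 and 0.25 as deposited, and passed as higher in 2 comparisons after the correction.

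Ndufa4 had 23.6 and 26.2 CPM in control and 28.6 to 38.0 CPM in the treated libraries, with no overlap. Its log2 fold changes were 0.38, 0.26, 0.48 and 0.35 (SE 0.08; adjusted p = 0.0013, 0.018, 0.00011 and 0.0017), and 0.17 after Pam3CSK4 for 1 h was its only corrected value to pass (adjusted p = 0.031). AA467197, a paralog of Ndufa4 known from inflammatory cells and outside the symbol rule, had 20.0 and 21.7 CPM in control, 25.5 and 25.1 after AmTARS for 1 h, 26.9 and 26.6 after 3 h, 30.0 and 25.8 after Pam3CSK4 for 1 h, and 30.2 and 34.2 after 3 h. All treated libraries lay above control. Its log2 fold changes were 0.27, 0.35, 0.40 and 0.60 (SE 0.08), all past the threshold, and the last alone passed after the correction (0.36, adjusted p = 4.8e-05). Ndufa4l2 had 3.83 and 3.96 CPM in control and rose after Pam3CSK4 for 1 h alone (0.39 ± 0.12, adjusted p = 0.0086), with a corrected value of -0.01.

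**Figure D4:**
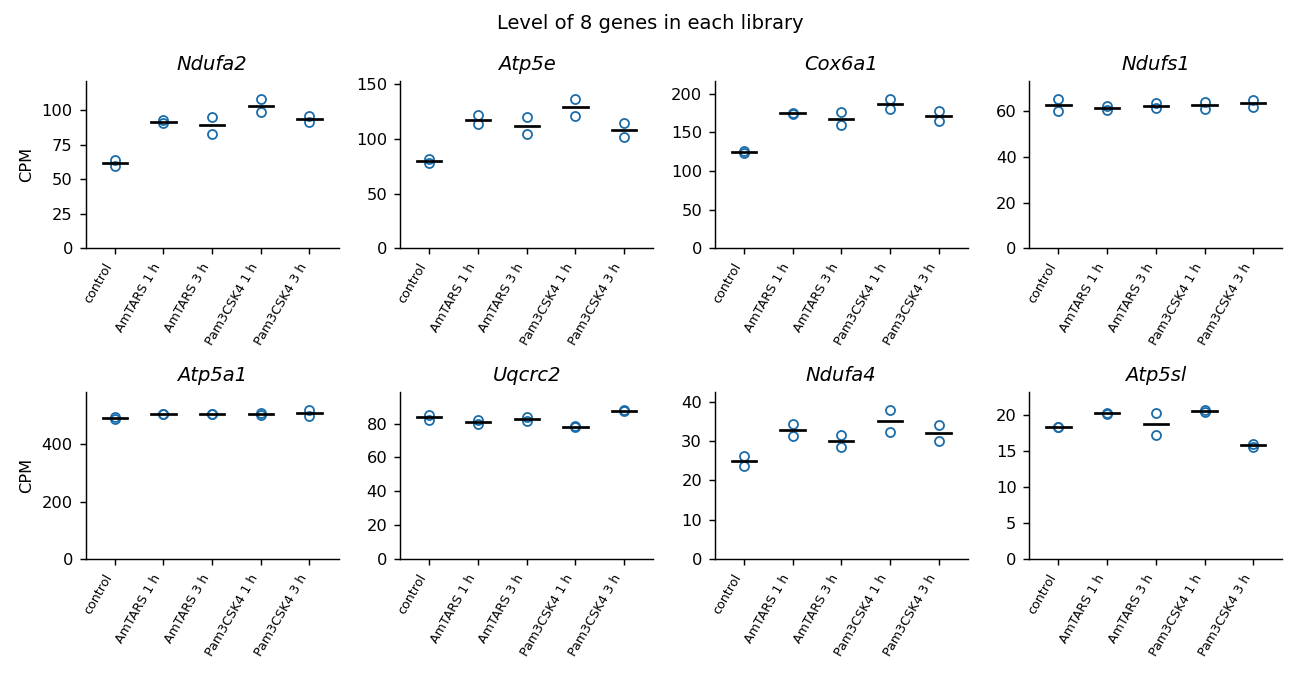
CPM of 8 genes in each library (circles) by group, with black bars for the mean of 2 libraries; each axis starts at 0. Ndufa2, Atp5e, Cox6a1 and Ndufa4 lie above control in every treated library, Ndufs1 and Uqcrc2 stay between 60.1 and 88.2 CPM, and Atp5sl is lowest after Pam3CSK4 for 3 h.

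In the ATP synthase, the genes of the F1 sector, which holds the catalytic sites, divided by size. Atp5a1 and Atp5b encode the large alpha and beta subunits, and Atp5e encodes the small epsilon subunit of the central stalk. Atp5a1 had 489 and 495 CPM in control and 499 to 521 CPM in treated libraries, all above control, with log2 differences of 0.04 to 0.05 and SE 0.04 that did not pass. Atp5b had 522 and 523 CPM in control and 533 to 596 in treated libraries, all above control, and rose after Pam3CSK4 for 3 h alone (0.13 ± 0.05, adjusted p = 0.026). That call did not hold after the correction (0.06, adjusted p = 0.16).

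Atp5e, at chr2:174461072-174464105 (mm10, - strand), had 78.4 and 81.9 CPM in control, 121 and 113 after AmTARS for 1 h, 120 and 104 after 3 h, 136 and 121 after Pam3CSK4 for 1 h, and 102 and 114 after 3 h. Treated and control libraries did not overlap. Its log2 fold changes were 0.55, 0.48, 0.68 and 0.42 (SE 0.07; adjusted p at most 5e-05), and 0.21, 0.19, 0.25 and 0.13 after the correction (adjusted p = 0.003, 0.0065, 0.00038 and 0.028). Atp5c1, the gamma subunit of the rotor, rose by 0.17, 0.14 and 0.16 in the first comparisons and had 0.06 after Pam3CSK4 for 3 h. Corrected, that last value was -0.12 and passed (adjusted p = 0.014), but not with the shortest transcript (-0.04, adjusted p = 0.47), without control replicate 3 (adjusted p = 0.13) or without Pam3CSK4 3 h replicate 2 (adjusted p = 0.062). Atp5d, the delta subunit, rose by 0.30 to 0.46 as deposited, and passed as higher in 0 comparisons with control after the correction.

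Atp5g1, Atp5g2 and Atp5g3 encode the same mature c subunit of the membrane ring from different precursors. Atp5g3 was the most abundant, with 124 and 133 CPM in control and 154 to 184 CPM in treated libraries. Atp5g2 had 60.7 and 61.1 CPM in control and 68.5 to 83.1 in treated libraries, and Atp5g1 had 52.7 and 53.4 CPM and 63.4 to 73.6. For each gene the treated libraries lay above control, and all rose as deposited, by 0.31 to 0.43 (Atp5g1), 0.23 to 0.42 (Atp5g2) and 0.33 to 0.46 (Atp5g3). They parted after the correction. Atp5g1 then had 0.49, 0.50, 0.63 and 0.50 with its long transcript, Atp5g3 had 0.09, 0.11, 0.15 and 0.10, and Atp5g2 had 0.04, 0.02, -0.04 and -0.09.

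The 7 genes of the stalk and membrane sector rose in every comparison with control as deposited, with medians of 0.35, 0.29, 0.43 and 0.27. After the correction 3, 1, 3 and 2 rose and 0, 0, 1 and 0 fell. Atp5l, the g subunit, had 53.3 and 57.5 CPM in control and 69.3 to 86.2 CPM in treated libraries, without overlap. Its log2 fold changes were 0.50, 0.40, 0.58 and 0.37 (SE 0.06), and 0.24, 0.18, 0.25 and 0.11 after the correction, all past the threshold. Atp5f1, Atp5h, Atp5j2, Atp5k and Atp5o rose by 0.19 to 0.26, 0.27 to 0.43, 0.29 to 0.49, 0.31 to 0.51 and 0.23 to 0.35 as deposited. Atp5j, a coupling factor of the stalk, rose by 0.17 to 0.22 as deposited, and its direction after the correction turned on the transcript used. After Pam3CSK4 for 1 h its corrected value was -0.16 and passed as lower (adjusted p = 0.010), and with the shortest transcript it was 0.12 and passed as higher (adjusted p = 0.037). The lower call did not hold without control replicate 3 (adjusted p = 0.20), Pam3CSK4 1 h replicate 1 (0.054) or replicate 3 (0.052).

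The genes with Atp5 symbols that encode no subunit did not rise. Atp5sl, listed in the annotation as the complex I assembly factor Dmac2, lies at chr7:25619414-25625551 (mm10, + strand). It had 18.3 and 18.3 CPM in control, 20.2 and 20.3 after AmTARS for 1 h, 20.3 and 17.2 after 3 h, 20.4 and 20.8 after Pam3CSK4 for 1 h, and 15.5 and 16.0 after 3 h. The last group lay below all other libraries. It fell by 0.20 ± 0.07 after Pam3CSK4 for 3 h (adjusted p = 0.029), and by 0.23 after the correction (adjusted p = 0.010). As deposited the call did not hold without control replicate 2 or 3 or without either Pam3CSK4 3 h library (adjusted p = 0.10, 0.097, 0.10 and 0.059), and corrected it did not hold without control replicate 3 (0.061). Atp5s, at 2.23 and 2.57 CPM in control, did not pass in any comparison with control.

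The ligands were then compared directly at matched times. At 1 h no member differed between Pam3CSK4 and AmTARS, where 0.184% of all genes did (limma, and 0 by voom). At an unadjusted p below 0.05, 15 members were higher after Pam3CSK4 and 0 lower. The median member difference was 0.09, and 65 of 72 differences were positive. For 34 members both Pam3CSK4 libraries lay above both AmTARS libraries, and for 3 members below. The share of all genes separated in this way was not counted. Across all genes Spearman's rho between log2 length and this difference was -0.34. After the length and GC correction the median member difference was 0.02. At an unadjusted p below 0.05 (limma), 5 members were then higher after Pam3CSK4 and 1 lower. The corrected library medians relative to control were 0.123 and 0.097 for Pam3CSK4 and 0.1 and 0.078 for AmTARS, and overlapped. As deposited, the medians relative to control were 0.50 and 0.37 in the Pam3CSK4 libraries and 0.36 and 0.31 in the AmTARS libraries, and did not overlap. The highest differences were those of Ndufb4 (0.28 ± 0.09, adjusted p = 0.41), Ndufa4l2 (0.25) and Ndufs3 (0.18), and the lowest those of Atp5s (-0.08), Uqcrc2 (-0.05) and Uqcrc1 (-0.03). At 3 h the median was 0.00, the highest values were those of Ndufb4 (0.16), Ndufa4l2 (0.11) and Ndufa11 (0.11), and 1 member of 72 differed, where 17.1% of all genes did. That gene was Atp5sl, at -0.23 ± 0.07 for Pam3CSK4 minus AmTARS (adjusted p = 0.036), followed by Atp5s (-0.20) and Atp5g2 (-0.10), which did not pass. After the correction 2 members differed, where 21.8% of all genes did, Atp5sl (-0.22, adjusted p = 0.026) and Atp5c1 (-0.12, adjusted p = 0.027). Neither lower call held without AmTARS 3 h replicate 1, without Pam3CSK4 3 h replicate 2 or with a term for the replicate number. Without Pam3CSK4 3 h replicate 2, the corrected change that passed was in the other direction. AA467197 was higher after Pam3CSK4 at 3 h than after AmTARS (0.26 ± 0.08, adjusted p = 0.023). A comparison of equal doses was not possible.

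Between 1 h and 3 h of AmTARS no member changed, where 2.38% of all genes did (limma, and 0 by voom), and the median was -0.05. At an unadjusted p below 0.05, 4 members were lower at 3 h and 0 higher. The lowest values were those of Ndufa12 (-0.18), Ndufb7 (-0.14) and Ndufa11 (-0.14), and the highest those of Ndufc1 (0.09), Ndufa10 (0.05) and Ndufb9 (0.045). Between 1 h and 3 h of Pam3CSK4, 20 members fell and 1 rose, where 15.3% of all genes fell and 16.2% rose, with a median of -0.13. The gene that rose was Uqcrc2 (0.16 ± 0.05, adjusted p = 0.013). That rise did not hold without Pam3CSK4 1 h replicate 1 or without Pam3CSK4 3 h replicate 3. Uqcrc2 was followed by Atp5b (0.08) and Ndufa9 (0.04), which did not pass. Those that fell included Atp5sl (-0.36), Atp5e (-0.25), Uqcr11 (-0.25), Uqcrq (-0.21) and Ndufs7 (-0.21). This count rested on single libraries, since it was 2 without Pam3CSK4 1 h replicate 1, 34 without Pam3CSK4 1 h replicate 3 and 5 without Pam3CSK4 3 h replicate 2. After the correction 8 members fell and 2 rose, where 16.9% and 16.4% of all genes did, so the share of members that fell (11.1%) lay under that of all genes. The corrected total was 2 without Pam3CSK4 1 h replicate 1. The members that then rose were Uqcrc2 (0.14) and Atp5b (0.11), and those that fell included Atp5sl (-0.34), Ndufv2 (-0.18) and Ndufb5 (-0.17).

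Whether the change from 1 h to 3 h differed between the ligands was tested as an interaction. As deposited it differed for no member, where 9.2% of all genes passed (limma, and 0 by voom), and the median was -0.10. At an unadjusted p below 0.05, 2 members had a negative interaction and 0 a positive one. The lowest values were those of Atp5sl (-0.25), Ndufc1 (-0.20) and Ndufs3 (-0.19), and the highest those of Uqcrc2 (0.13), Atp5b (0.08) and Uqcrc1 (0.07). After the correction 1 member passed, where 11.9% of all genes did. It was Ndufv2 (-0.23 ± 0.07, adjusted p = 0.043). This negative call did not hold when any library of control or of either group at 1 h was left out. It also did not hold without AmTARS 3 h replicate 1 or Pam3CSK4 3 h replicate 2. Without the latter, the members that passed had a positive interaction.

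Genes that work beside the subunits were counted the same way, in the order AmTARS 1 h, AmTARS 3 h, Pam3CSK4 1 h and Pam3CSK4 3 h. Of all genes, 18.9%, 18.8%, 23.9% and 24.7% rose as deposited, and 19.8%, 17.9%, 24.8% and 24.2% fell. After the correction 8.13%, 10.9%, 11.6% and 21.1% of all genes rose, and 6.72%, 8.22%, 11.3% and 21.5% fell. The 5 nuclear subunit and carrier genes outside the symbol rule all rose in each comparison, with medians of 0.29, 0.22, 0.39 and 0.29. After the correction 1, 1, 3 and 1 of them rose. They include Ndufab1, the acyl carrier protein of complex I, and Usmg5, a small ATP synthase subunit, and 2010107E04Rik, at 0.47 and 0.48 after Pam3CSK4 for 1 h. Cytochrome c, Cycs, rose by 0.43 after Pam3CSK4 for 3 h. Of 4 complex II genes 3, 1, 3 and 3 rose, with Sdhb, the iron-sulfur subunit, at 0.30, 0.27 and 0.31 in the first comparisons and Sdhd at 0.25 after Pam3CSK4 for 1 h, and 1 rose in each after the correction. Of 14 complex I assembly factor genes 2 rose in each, led by Ndufaf3 (0.51 after Pam3CSK4 for 3 h) and Ndufaf2 (0.34 after Pam3CSK4 for 1 h), and 0, 1, 0 and 1 fell. After the correction 0, 0, 3 and 1 rose and 0, 0, 0 and 1 fell. Of 5 complex III assembly factor genes 2, 2, 2 and 4 rose, among them Uqcc2 and Uqcc3 (0.49 and 0.46 after Pam3CSK4 for 1 h), and 0, 0, 0 and 2 rose after the correction, where 0, 0, 0 and 1 fell. Of 21 complex IV assembly factor genes 9, 7, 11 and 7 rose and 0, 0, 2 and 2 fell, with Cox16 at 0.59 after Pam3CSK4 for 1 h and the copper chaperone Cox17 at 0.56 after Pam3CSK4 at either time. After the correction 1, 2, 5 and 4 of them rose and 0, 0, 2 and 3 fell. Atpif1, the inhibitor of ATP hydrolysis by the synthase, rose by 0.34, 0.28, 0.44 and 0.23, and the assembly factor Tmem70 by 0.23 after Pam3CSK4 for 1 h. After the correction 0 of the 4 genes of that list passed in any of the comparisons.

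Genes that feed or control the pathway were counted likewise. Of all genes, 18.9%, 18.8%, 23.9% and 24.7% rose as deposited, and 19.8%, 17.9%, 24.8% and 24.2% fell. The corrected shares of all genes are those given for the lists above. Of 14 Krebs cycle genes 2, 2, 3 and 4 rose and 1 fell in each comparison. Ogdh, of the oxoglutarate dehydrogenase complex, fell by 0.30 after AmTARS for 1 h, and Mdh2, mitochondrial malate dehydrogenase, rose by 0.26 after Pam3CSK4 for 3 h. After the correction 0, 0, 0 and 3 rose and 1, 0, 2 and 4 fell. Of 16 regulators of mitochondrial gene expression 1, 1, 3 and 3 rose and 2, 1, 2 and 1 fell. The nuclear receptor Esrra rose by 0.47 and 0.56 after Pam3CSK4 for 1 h and 3 h, while Gabpa, the ETS-domain subunit of GABP, fell by 0.32 after Pam3CSK4 for 1 h and Polg2, of the mitochondrial DNA polymerase, by 0.37 after Pam3CSK4 for 3 h. After the correction 3, 2, 3 and 5 rose and 1 fell in each. Of 7 carrier genes 5 rose in each comparison, among them the adenine nucleotide translocator Slc25a4 (0.30 after Pam3CSK4 for 1 h) and the phosphate carrier Slc25a3 (0.28), and 3, 3, 4 and 2 rose after the correction.

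Other large sets of genes with short transcripts were set beside the subunits as a description. The median transcript was 799 bases for 89 cytosolic ribosomal protein genes, 1226 for 77 mitochondrial ribosomal protein genes and 1512 for 39 proteasome genes. Of the cytosolic ribosomal protein genes 78, 77, 77 and 76 rose, with medians of 0.37, 0.30, 0.44 and 0.28, close to the values of the respiratory subunits. Of the mitochondrial ribosomal protein genes 46, 42, 57 and 44 rose, with medians of 0.20, 0.20, 0.28 and 0.18. Of the proteasome genes 27, 30, 29 and 36 rose, with medians of 0.22, 0.23, 0.26 and 0.29. After the correction the medians were 0.07 to 0.13 for cytosolic ribosomal proteins, 0.04 to 0.06 for mitochondrial ones and 0.08 to 0.14 for the proteasome, beside 0.05 to 0.11 for the respiratory subunits. No difference between these sets was tested.

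**Figure D5:**
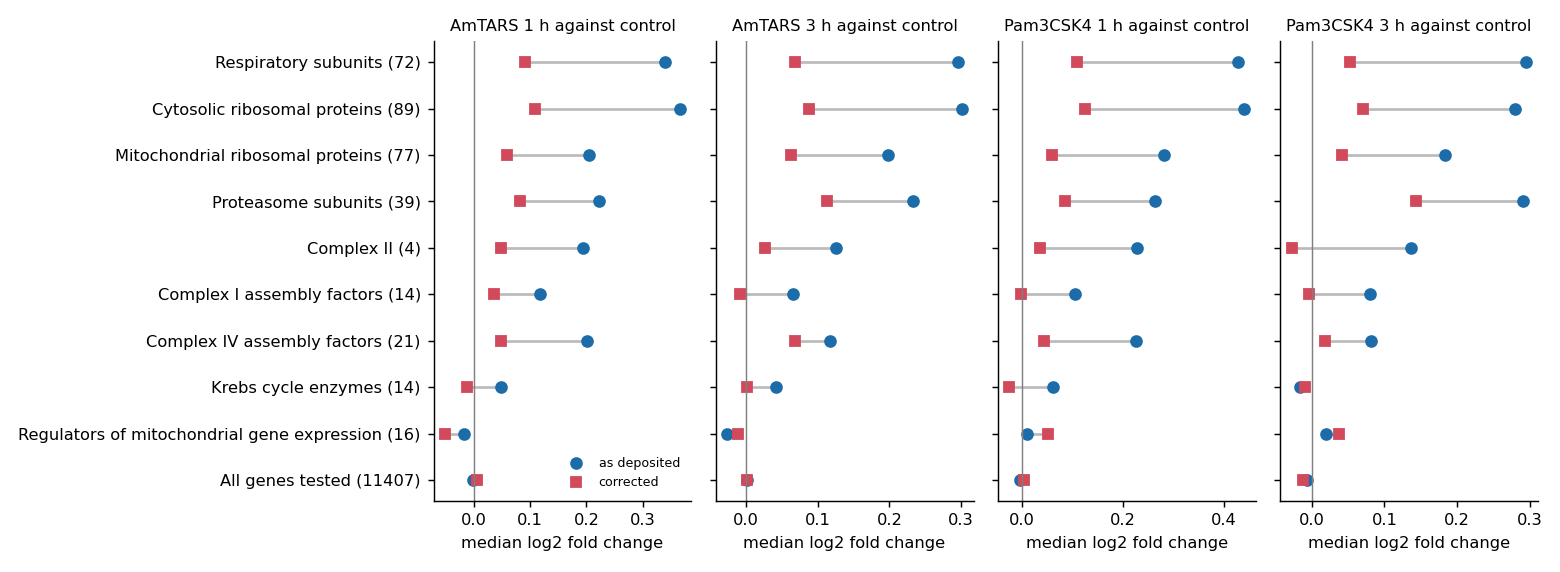
Median log2 difference from control (horizontal) of the respiratory subunit genes, other gene lists and all tested genes, with numbers of genes in brackets, as deposited (blue circles) and after the length and GC correction (red squares), 1 panel per comparison. The respiratory subunits and cytosolic ribosomal proteins have like medians, which come down to 0.13 or less after the correction.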

How the data were processed

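Libraries came from a stranded kit with poly-A selection, per the labels' protocols. STAR 2.5.1, R 3.3.0 and the build mm10 are named in the submitters' processing notes. Which tool counted reads, with which annotation and scaling, is not given in the sources used here, and neither is the treatment of reads shared with pseudogenes, which several members have. The authors' deposited values are log2(CPM + 1). Back-transformed with 1 factor per library, 100% of values were whole reads to within 0.1 read.

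Testing covered genes averaging 1 CPM or more and used limma 3.58.1 in R 4.3.3, with 1 mean per group, an intensity trend and 9 contrasts, as a linear model on the deposited values. P-values were adjusted by Benjamini-Hochberg over all 11407 genes, with a threshold of 0.05. Fold changes are on the log2(CPM + 1) scale, which understates the change of low genes, and ± gives the moderated SE. GENCODE M21 gave lengths, GC content and positions (GRCm38, the same assembly as mm10). For the correction, each library's values relative to the gene mean were fitted against natural splines (5 degrees of freedom each) of log2 length and GC content, and the trend was removed. The calculation was tested on simulated data. Figures used matplotlib 3.10.9 in Python 3.11.15.

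Members with the 3 highest and 3 lowest values of each comparison and a fixed set of core members were named, with other members by value or range, and from each other list its 2 largest changes, besides Cycs and Gabpa, which were chosen after their values were seen. The values of 1 gene of the fixed set are not reported here. Members and lists were chosen with earlier results of these data known. Alternatives were other filters, pseudocounts of 0.25 and 5, median scaling, voom on the recovered reads, a term for the replicate number, the correction, and leaving out each library. Added after seeing the data were the correction by the shortest coding transcript, the corrected values without each library, and the restriction of printed promoters to starts within 25 bases of the annotated gene start. Replicate numbers did not pair the libraries (correlations of deviations from -0.18 to 0.20 over 4 pairs of groups).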

Additional observations from a re-analysis of the deposited data

Results flagged for a closer look

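For Atp5sl the ligands differed at 3 h, with Pam3CSK4 minus AmTARS at -0.23 (log2; adjusted p = 0.036, limma). Both libraries after Pam3CSK4, at 15.5 and 16.0 CPM, lay below both after AmTARS, at 20.3 and 17.2 CPM. Over the alternatives its adjusted p ran from 0.0090, without AmTARS 3 h replicate 3, to 0.47, without AmTARS 3 h replicate 1, where the difference was -0.12. It also did not pass without Pam3CSK4 3 h replicate 2 (0.12) or replicate 3 (0.087).

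For AA467197, the paralog of Ndufa4, the same comparison gave 0.26 (adjusted p = 0.023). Its libraries held 30.2 and 34.2 CPM after Pam3CSK4 and 26.9 and 26.6 CPM after AmTARS, without overlap. Its adjusted p ran from 0.0035 to 0.27 over the alternatives, and it did not pass without Pam3CSK4 3 h replicate 3 (0.27), AmTARS 3 h replicate 1 (0.094) or AmTARS 3 h replicate 3 (0.11).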

How the results depend on the processing

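Counts of changed members are given in the order AmTARS 1 h, AmTARS 3 h, Pam3CSK4 1 h and Pam3CSK4 3 h against control. As deposited they were 64, 63, 64 and 64, and 63 to 65 with no filter, a mean of at least 5 CPM, pseudocounts of 0.25 or 5, median scaling or voom. The length and GC correction gave 18, 12, 37 and 21, and with the shortest transcript 48, 42, 59 and 46. Leaving out 1 library gave 38 to 63 for AmTARS 3 h, and corrected 4 to 23, 4 to 18, 14 to 39 and 7 to 20. For Pam3CSK4 against AmTARS at 3 h the counts were 1 as deposited, 2 corrected and 3 with the shortest transcript, and 0 to 1 or, corrected, 0 to 3 without 1 library. For Pam3CSK4 from 1 h to 3 h they were 21 as deposited, 10 corrected, 17 with the shortest transcript, and 2 to 34 or, corrected, 2 to 10 without 1 library. The interaction gave 0 as deposited, 1 corrected and 0 with the shortest transcript, and 0 to 1 or, corrected, 0 to 2 without 1 library. As deposited, leaving out control replicate 2 also lowered the counts of the other comparisons with control, that of Pam3CSK4 3 h the most. Leaving out Pam3CSK4 3 h replicate 3 lowered that of Pam3CSK4 3 h as well. Without Pam3CSK4 3 h replicate 2, the corrected ligand comparison at 3 h and the corrected interaction turned in the direction of the members that passed. With 2 libraries per group, leaving out 1 assumes that the lone library varies like the other groups.

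A replicate block, although the numbers did not pair the libraries, gave 64, 42, 62 and 65, and corrected 19, 6, 16 and 21. With it the counts were 0 for Pam3CSK4 against AmTARS at 3 h, also corrected, 3 for Pam3CSK4 from 1 h to 3 h (1 corrected), and 0 for the corrected interaction.

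The correction turned the sign of 5, 5, 7 and 11 members called as deposited, of which 1 then passed, Atp5j after Pam3CSK4 for 1 h (-0.16). Among the genes with full values these were Cox8a (-0.014, -0.0, -0.072 and -0.007), Ndufv1 at AmTARS 1 h (-0.002), Atp5g2 (-0.039 and -0.087) and Uqcrc1 at 1 h (-0.018) after Pam3CSK4. With block and correction together Cox8a had -0.014 (AmTARS 1 h), -0.056 and -0.007 (Pam3CSK4 1 h and 3 h), and Ndufv1, Atp5g2 and Uqcrc1 had -0.002, -0.039, -0.087 and -0.007 in the comparisons just named. Cox4i1 and Ndufa4 then had -0.009 and -0.003 at AmTARS 3 h, and Cox4i1 0.002 from 1 h to 3 h of Pam3CSK4. The cause of these shifts was not tested. Of 108 results for single genes, 59 kept their direction and call under the correction and 93 with the shortest transcript. Depth limits Atp5s and Ndufa4l2 most.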
